A study of Homo sapiens with 4 samples.

Results

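The genes of the kynurenine pathway, the main route by which cells break down tryptophan, were examined in basal-like breast cancer lines made to express FBP1. FBP1 encodes fructose-1,6-bisphosphatase, an enzyme of gluconeogenesis. The members were 10 listed enzymes of the pathway (IDO1, IDO2, TDO2, AFMID, KMO, KYNU, AADAT, HAAO, QPRT and ACMSD) of 18417 genes in all, and each of the 10 was measured by 1 probe set annotated to that gene alone. The list was chosen with the data known, because KYNU was lower with FBP1 in both lines, and the FBP1 and line differences on these arrays belonged to the choice. Those differences are therefore given as descriptions, and where counts of members called by a fit over all genes are printed, they stand beside the background and support nothing. RNA from 4 samples was hybridised, with 1 Affymetrix array each: MDA-MB231 stable clones that express FBP1, MDA-MB231 control cells, Hs578T stable clones that express FBP1 and Hs578T control cells. MDA-MB231 and Hs578T are established human lines, and the cells of all 4 samples were grown in serum-containing medium and harvested while dividing exponentially. The sources used here do not say which promoter drove FBP1, whether the controls carried an empty vector or how many clones were pooled. Each line and construct had a single array, so no difference within a line had a replicate check, and a clone's own history and FBP1 cannot be told apart.

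In the pathway, a heme-containing dioxygenase, IDO1, IDO2 or TDO2, first opens the indole ring of tryptophan. The product is hydrolysed to kynurenine by AFMID, and kynurenine is hydroxylated by KMO, cleaved by KYNU or turned into kynurenic acid by aminotransferases such as AADAT. The hydroxylated branch runs through KYNU and HAAO to quinolinate, which QPRT feeds into NAD synthesis, while ACMSD diverts the intermediate before quinolinate. In tumours the pathway is known for depleting tryptophan and for making kynurenine, a ligand of the aryl hydrocarbon receptor that restrains T cells.

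The introduced gene followed the labels. FBP1 had a log2 value of 13.07 on the FBP1 array and 9.83 on the control array of MDA-MB231, and 13.35 on the FBP1 array and 6.35 on the control array of Hs578T. Array medians over all probe sets lay between 7.83 and 7.86. Detection calls were not among the data used, so a dim level was set after the values had been seen, as the 95th percentile of 341 olfactory receptor genes, genes used mainly by sensory neurons of the nose. It was 7.15 on the FBP1 array and 7.04 on the control array of MDA-MB231, and 7.34 on the FBP1 array and 7.23 on the control array of Hs578T. Values below it are called dim here, and their size is uncertain because background adds to the signal.

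KYNU and TDO2 stood apart from the other 8 members, which lay within 1.5-fold of control in both lines. In MDA-MB231, 1 of 10 members (KYNU) was at least 1.5-fold lower on the FBP1 array, where 0.337% of all genes were, and 0 were at least 1.5-fold higher, where 0.353% of all genes were. In Hs578T, 2 of 10 (KYNU and TDO2) were at least 1.5-fold lower, against 1.57% of all genes, and 0 were at least 1.5-fold higher, against 1.40%. At 2-fold, 0 members were lower in MDA-MB231, where 0.0217% of all genes were, and 1 (TDO2) was lower in Hs578T, where 0.424% were. KYNU alone was at least 1.5-fold lower in both lines, a pattern of 0.0326% of all genes (6 of 18417) and the one for which the list was chosen, so nothing is read from these shares. The median log2 change of the 10 members was 0.022 in MDA-MB231 and −0.132 in Hs578T, beside −0.0039 and 0.026 over all genes. Of the 10 genes, 3 (IDO1, TDO2 and KYNU) lay below control in both lines, as 23.3% of all genes did. Another 1 (AADAT) lay above control in both, and 6 lay on opposite sides. The shares of all genes with these last patterns were not counted, so nothing is read from them. In MDA-MB231 the sign depended on the processing for IDO1 (−0.015, above 0 with quantile normalization) and HAAO (−0.0072, above 0 with median centring).

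**Figure D1:**
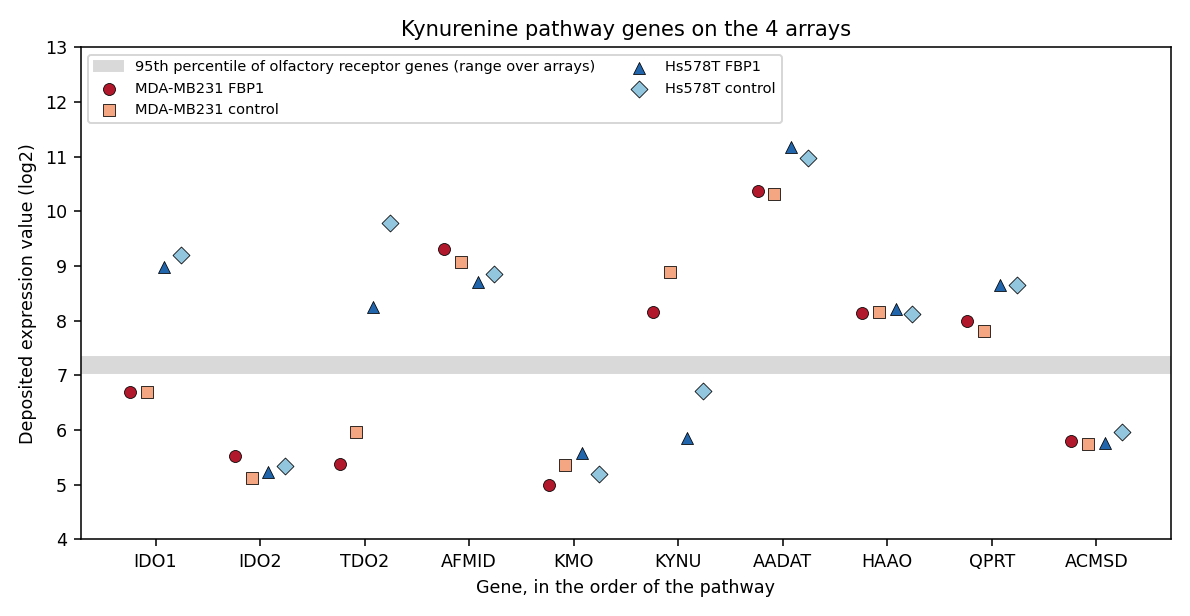
Deposited log2 expression value (vertical axis) of each pathway gene on the 4 arrays, 1 point an array, with genes in pathway order; the grey band is the range over arrays of the 95th percentile of olfactory receptor genes (7.04 to 7.34). KYNU lies above the band in MDA-MB231 and below it in Hs578T, whereas IDO1 and TDO2 lie above it in Hs578T and below it in MDA-MB231.

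KYNU encodes kynureninase, a pyridoxal phosphate enzyme that cleaves kynurenine and hydroxykynurenine. Its log2 value was 8.17 on the FBP1 array and 8.89 on the control array of MDA-MB231, and 5.85 on the FBP1 array and 6.72 on the control array of Hs578T. The FBP1 array was thus the lower of each pair, and both MDA-MB231 arrays were above both Hs578T arrays. The change with FBP1 was −0.72 log2 in MDA-MB231, which is 1.65-fold lower, and −0.87 log2 in Hs578T, which is 1.83-fold lower. In MDA-MB231, 25 of 18417 genes had a lower change, and in Hs578T 118 did. Both Hs578T values were dim, so the presence of KYNU transcript in that line rests on values that olfactory receptor genes also reach.

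TDO2 encodes tryptophan dioxygenase, the enzyme of the first step that is best known from liver. Its log2 value was 5.38 on the FBP1 array and 5.97 on the control array of MDA-MB231, both dim. In Hs578T it was 8.25 on the FBP1 array and 9.79 on the control array, both above the dim level. The FBP1 array was again the lower of each pair. The change was −1.54 log2 in Hs578T, or 2.91-fold lower, and 16 genes had a lower change there. In MDA-MB231 it was −0.584 log2, just short of the 1.5-fold cut of 0.585, and 63 genes had a lower change. No member lay closer to the cut from outside, and the nearest inside was KYNU in MDA-MB231 at −0.721.

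The sequences before the start sites of KYNU and TDO2, the members at least 1.5-fold lower with FBP1 in at least 1 line, are shown beside that of HAAO, whose values were nearly level. Each is the 250 bases upstream of the RefSeq start in GRCh38.p14, written 5′ to 3′ on the gene's strand, with motif matches in capitals.
KYNU, chr2:142877414-142877663, plus strand: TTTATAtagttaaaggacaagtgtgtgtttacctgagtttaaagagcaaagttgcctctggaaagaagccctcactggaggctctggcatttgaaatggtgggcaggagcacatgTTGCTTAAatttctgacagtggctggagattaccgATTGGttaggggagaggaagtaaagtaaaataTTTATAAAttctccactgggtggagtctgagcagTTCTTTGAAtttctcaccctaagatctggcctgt
TDO2, chr4:155903446-155903695, plus strand: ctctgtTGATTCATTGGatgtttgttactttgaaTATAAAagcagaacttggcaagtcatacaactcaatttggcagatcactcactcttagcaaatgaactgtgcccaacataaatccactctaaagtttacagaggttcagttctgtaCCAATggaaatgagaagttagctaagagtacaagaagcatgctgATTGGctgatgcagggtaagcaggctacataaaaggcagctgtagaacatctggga
HAAO, chr2:42792584-42792833, minus strand: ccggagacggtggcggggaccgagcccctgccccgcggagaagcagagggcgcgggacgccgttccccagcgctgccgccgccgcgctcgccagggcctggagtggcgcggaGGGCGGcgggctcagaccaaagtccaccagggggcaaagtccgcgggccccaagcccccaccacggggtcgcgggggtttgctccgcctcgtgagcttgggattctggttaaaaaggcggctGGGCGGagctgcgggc
Motifs were searched on both strands, so a capital run may be the reverse complement of the letters named. The core promoter box bound by the TATA-binding protein was searched as TATAAA, and the binding site of SP1, known as the GC box, as GGGCGG. The CCAAT box was searched by the letters of its name. For the aryl hydrocarbon receptor the core GCGTG was used, for basic helix-loop-helix factors the palindromic E-box CACGTG, and for the interferon-gamma response the GAS element TTCNNNGAA. AP-1 was searched by the 7 letters TGANTCA, and the C/EBP family, which is active in liver and myeloid cells, by TTGCNNAA. The KYNU window held TATA box letters at 250 to 245, 68 to 63 and 66 to 61 bases upstream, the last pair overlapping. It also held a CCAAT box at 100 to 96, a GAS match at 34 to 26 and a C/EBP match at 135 to 128 bases upstream. The TDO2 window held a TATA box at 216 to 211, CCAAT boxes at 238 to 234, 100 to 96 and 56 to 52, and an AP-1 match at 244 to 238 bases upstream that shares a base with a CCAAT box. The HAAO window held GC boxes at 138 to 133 and 16 to 11 bases upstream. TATA box letters were found in 10.7% of 35116 promoter windows of the same length, CCAAT in 32.0%, GC box in 42.6%, AHR core in 32.2%, E-box in 6.35%, GAS in 6.57%, AP-1 in 6.57% and C/EBP in 9.05%. G and C made up 42.4% of the KYNU window, 40.0% of the TDO2 window and 74.8% of the HAAO window. TATA and CCAAT letters were not particular to KYNU and TDO2. The windows of KMO and AFMID, which were within 1.5-fold of control, also held them, and AFMID held GC box and AHR core letters as well. The windows of AADAT and QPRT held no match. Of the member windows searched, only that of KYNU held GAS and C/EBP letters, and only that of TDO2 held AP-1 letters. Promoter entries were matched for 7 of the 10 members. A match describes letters in a window and shows neither binding nor use.

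**Figure D2:**
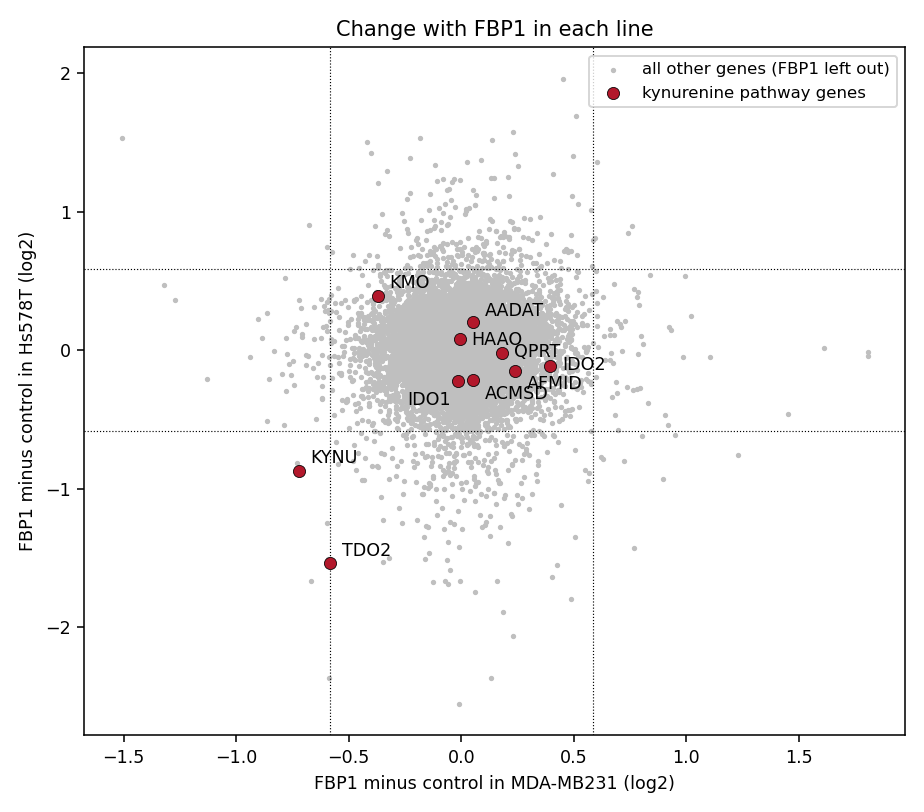
Log2 change with FBP1 in MDA-MB231 (horizontal axis) and in Hs578T (vertical axis), for the 10 pathway genes (red) and all other genes except FBP1 (grey); dotted lines mark 1.5-fold. KYNU (−0.72 and −0.87) and TDO2 (−0.584 and −1.54) lie at the lower left, and the other 8 lie within the dotted lines.

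The other first-step genes, IDO1 and IDO2, lay within 1.5-fold of control in both lines. IDO1, the interferon-inducible enzyme of the first step, had log2 values of 6.69 on the FBP1 array and 6.70 on the control array of MDA-MB231, both dim. In Hs578T it had 8.98 on the FBP1 array and 9.20 on the control array, both above the dim level. Its change was −0.015 log2 in MDA-MB231 and −0.22 in Hs578T. IDO2, a related enzyme with weaker known activity on tryptophan, was dim on all 4 arrays, at 5.52 with FBP1 and 5.12 in the control of MDA-MB231 and at 5.22 with FBP1 and 5.34 in the control of Hs578T. Its change of 0.40 log2 in MDA-MB231 was the highest of the 10 members there, at values where a transcript was not separated from background. Of these 3 first-step genes, IDO1 and TDO2 were above the dim level in Hs578T, and none was above it in MDA-MB231.

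AFMID, the formamidase that releases kynurenine, was above the dim level on all 4 arrays. It had log2 values of 9.31 on the FBP1 array and 9.07 on the control array of MDA-MB231, and 8.71 on the FBP1 array and 8.86 on the control array of Hs578T. Its changes of 0.24 and −0.15 ran in opposite directions. KMO, the hydroxylase that competes with KYNU for kynurenine, was dim throughout, at 4.98 with FBP1 and 5.36 in the control of MDA-MB231 and at 5.59 with FBP1 and 5.19 in the control of Hs578T. Its changes of −0.37 and 0.39 were also opposite. For comparison, changes of the olfactory receptor genes had an SD over genes of 0.20 log2 in MDA-MB231 and 0.23 in Hs578T, with extremes of −0.51 and 0.63 in MDA-MB231 and −0.80 and 0.87 in Hs578T.

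Downstream enzymes and the kynurenic acid branch were nearly level. HAAO, the dioxygenase that leads to quinolinate, had log2 values of 8.14 on the FBP1 array and 8.15 on the control array of MDA-MB231, and 8.21 on the FBP1 array and 8.13 on the control array of Hs578T, so its 4 values spanned 0.082 log2. QPRT, which turns quinolinate into nicotinic acid mononucleotide, had 8.00 with FBP1 and 7.82 in the control of MDA-MB231, and 8.64 with FBP1 and 8.66 in the control of Hs578T. Its changes were 0.18 and −0.018. ACMSD, the decarboxylase that draws the pathway away from quinolinate, was dim on all 4 arrays, with values between 5.74 and 5.97. AADAT, an aminotransferase that makes kynurenic acid, had 10.37 with FBP1 and 10.31 in the control of MDA-MB231, and 11.18 with FBP1 and 10.98 in the control of Hs578T. Its changes of 0.053 and 0.21 were both above 0 and below 1.5-fold.

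The fit of limma to all genes with terms for line and construct uses the lines in place of replicates. Its error for a gene joins the disagreement between 2 different lines (1 residual degree of freedom) with a prior drawn from all genes (5.09). The standard errors and calls therefore rest more on the prior than on the gene's own arrays. For FBP1 minus control over both lines it called 0 of 10 members and 0 of 18417 genes (0.00%) at adjusted p under 0.05. At unadjusted p under 0.05 it listed 2 members, KYNU and TDO2, and 966 genes (5.25%). FBP1 itself was not called, with a mean log2 change set by increases of 3.24 in MDA-MB231 and 7.00 in Hs578T. The members had been chosen on this contrast, so nothing is read from the count.

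Among the members, the line differences were largest for TDO2 and IDO1, lower in MDA-MB231, and for KYNU, higher in MDA-MB231. KYNU was higher in MDA-MB231, by 2.32 log2 between the FBP1 arrays and 2.17 between the control arrays, a mean of 2.24 (SE 0.11 in the limma fit, 2 arrays a line). TDO2 was lower in MDA-MB231, by −2.86 log2 between the FBP1 arrays and −3.82 between the control arrays, a mean of −3.34 (SE 0.22). IDO1 was lower in MDA-MB231, by −2.29 log2 between the FBP1 arrays and −2.50 between the control arrays, a mean of −2.39 (SE 0.11). The arrays of the lines did not overlap for any of these 3 genes, but the share of all genes without overlap was not counted, so nothing is read from this. As the lower line was dim in each case, the 4.73-fold mean difference of KYNU, the 10.1-fold of TDO2 and the 5.26-fold of IDO1 have an uncertain size.

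Smaller line differences were found in AADAT and QPRT, both higher in Hs578T. AADAT differed by a mean of −0.74 log2 (SE 0.10) and QPRT by −0.75 (SE 0.11), with all 4 values of each above the dim level. AFMID was higher in MDA-MB231 by 0.60 log2 between the FBP1 arrays and 0.21 between the control arrays, a mean of 0.40 (SE 0.13). HAAO differed by −0.02 (SE 0.10), and its lines overlapped. IDO2, KMO and ACMSD, dim on all arrays, differed by means of 0.038, −0.22 and −0.098. The fit called 5 of 10 members at adjusted p under 0.05, KYNU as higher in MDA-MB231 and IDO1, TDO2, AADAT and QPRT as higher in Hs578T, where it called 36.0% of all genes (19.0% as higher in MDA-MB231 and 16.9% as higher in Hs578T). The line difference was also in view when the list was chosen, so the count is a description.

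**Figure D3:**
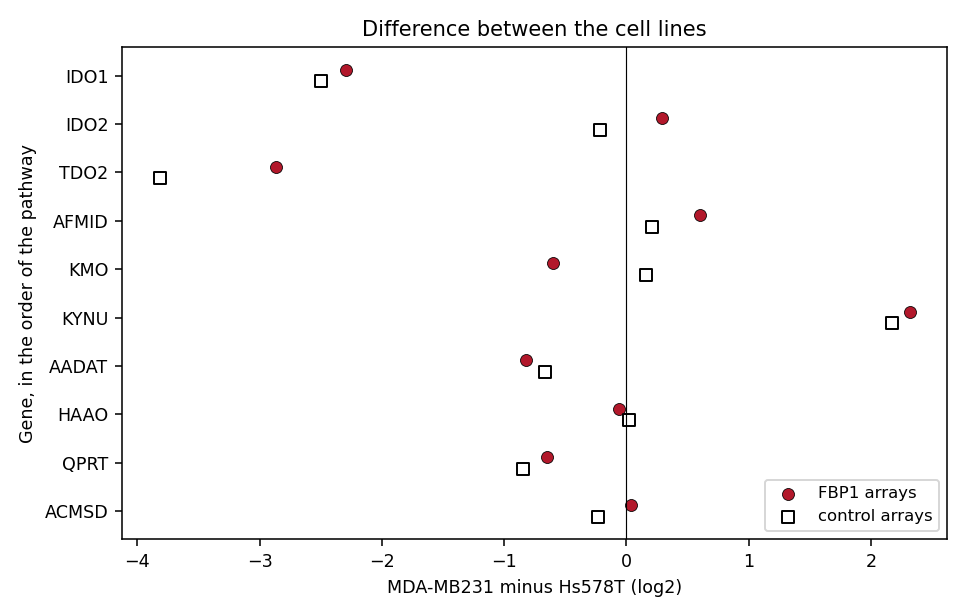
MDA-MB231 minus Hs578T in log2 (horizontal axis) for each pathway gene, between the FBP1 arrays (red circles) and between the control arrays (open squares). KYNU lies to the right at 2.32 and 2.17, and TDO2 (−2.86 and −3.82) and IDO1 (−2.29 and −2.50) lie to the left.

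Over the 4 arrays, no other member had a profile close to that of KYNU. Likeness was measured as the Euclidean distance between log2 profiles centred on each gene's mean, and AFMID, the nearest member, ranked 3033 among all other genes with a distance of 2.02. The 5 nearest genes were TMEM154 (0.418), the receptor phosphatase gene PTPRU (0.450), FRMD4B (0.483), the zinc finger gene ZNF528 (0.493) and the epithelial transcription factor gene SPDEF (0.529). TMEM154 had log2 values of 9.73 with FBP1 and 10.51 in the control of MDA-MB231, and 7.81 with FBP1 and 8.10 in the control of Hs578T. Its changes were −0.78 and −0.29. SPDEF changed by −0.53 and −0.43, PTPRU by −0.27 and −0.42, FRMD4B by −0.30 and −0.33, and ZNF528 by −0.15 and −0.99. All 5 were lower on the FBP1 array of each line and higher in MDA-MB231. The mean gap between the lines for KYNU, 2.24 log2, was larger than its changes with FBP1, so the likeness rests more on the lines than on FBP1.

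**Figure D4:**
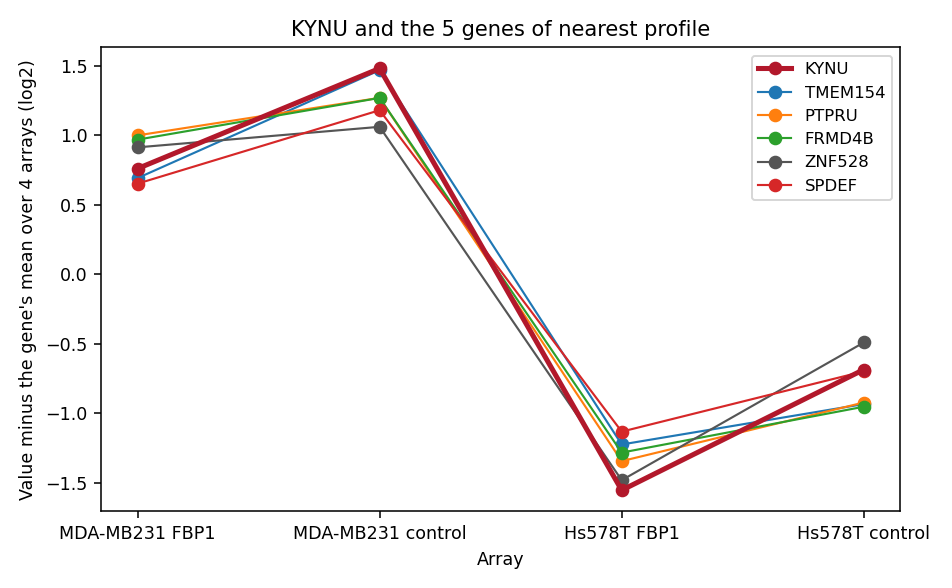
Log2 value minus the gene's mean over the 4 arrays (vertical axis) on each array (horizontal axis) for KYNU (thick red line) and its 5 nearest genes, with lines joining the points of a gene. All 6 genes are higher in MDA-MB231 than in Hs578T and lower on the FBP1 array of each line.

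The genes beside KYNU on chromosome 2 lay within 1.5-fold of control in both lines. In RefSeq order the 3 measured genes on one side were SPOPL, NXPH2 and LRP1B, and on the other ARHGAP15, QTMAN and ZEB2. Their changes ran from −0.12 to 0.094 log2 in MDA-MB231 and from −0.39 to 0.24 in Hs578T. LRP1B, a lipoprotein receptor gene next to KYNU, had 0.094 and −0.39, and ARHGAP15 on the other side had −0.12 and 0.042. ZEB2, a repressor of epithelial genes, had −0.031 and 0.24.

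Most genes that supply, branch from or answer to the pathway lay within 1.5-fold of control, as most of all genes did. Of 55 measured genes in 6 related lists, 0 were at least 1.5-fold lower in MDA-MB231, where 0.337% of all genes were. There 2 were at least 1.5-fold higher, against 0.353% of all genes. In Hs578T, 1 was lower, against 1.57%, and 1 higher, against 1.40%. The medians over the 55 were 0.066 log2 in MDA-MB231 and 0.0087 in Hs578T. The genes past 1.5-fold were IL1B and CXCL10 in MDA-MB231 and CYP1B1 and IL1B in Hs578T.

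**Figure D5:**
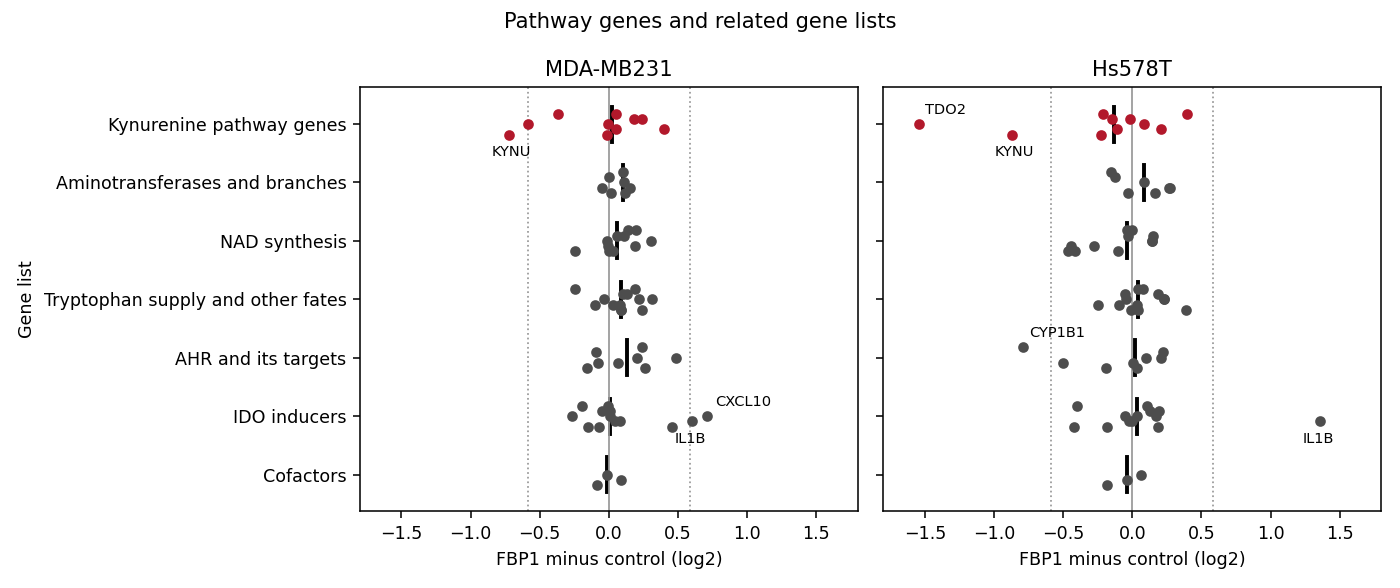
Log2 change with FBP1 (horizontal axis) in MDA-MB231 (left) and Hs578T (right) for the pathway genes (red) and genes of 6 related lists (grey), 1 point a gene; black bars are list medians and dotted lines mark 1.5-fold. Named points are those past 1.5-fold, and the medians of the related lists lie between −0.041 and 0.133.

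The other kynurenine aminotransferases and the enzymes of side branches were within 1.5-fold of control, 7 of 7 in both lines. KYAT3 stood at 0.15 and 0.27, KYAT1 at 0.11 and 0.16, the mitochondrial fatty acid gene HADH at −0.05 and 0.27, and GCDH, which acts in the glutaryl-CoA branch, at 0.10 and −0.16. In NAD synthesis, 11 of 11 genes were within 1.5-fold in both lines. NADSYN1, the NAD synthetase that completes the route from QPRT, stood at 0.03 and −0.47. The riboside kinase gene NMRK1 stood at 0.19 and −0.44, and NNMT, which methylates nicotinamide, at −0.24 and −0.41. NMRK1 was dim on every array but the Hs578T control (7.40). NAMPT, the salvage enzyme, stood at −0.0006 and −0.10.

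In tryptophan supply, 13 of 13 measured genes were within 1.5-fold in both lines, as most of all genes were. SLC7A5 and SLC3A2, which together form the main tryptophan transporter, stood at 0.09 and 0.04 and at −0.10 and −0.09. WARS1, the cytosolic tryptophanyl-tRNA synthetase, stood at 0.08 and 0.03, SLC7A8 at 0.31 and −0.04 and SLC6A19 at 0.08 and 0.39. In Hs578T, SLC7A8 was dim on the FBP1 array (7.23) and SLC6A19 on the control array (7.18). In the serotonin branch, TPH1, which hydroxylates tryptophan, had log2 values of 7.52 with FBP1 and 7.39 in the control of MDA-MB231, and dim values of 5.06 with FBP1 and 5.11 in the control of Hs578T.

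The aryl hydrocarbon receptor gene AHR stood at −0.16 and 0.03. In MDA-MB231, 0 of 8 measured genes of its list passed 1.5-fold, where 0.337% of all genes were lower and 0.353% higher. In Hs578T, 1 of 8 was at least 1.5-fold lower, where 1.57% of all genes were. That gene, CYP1B1, a cytochrome P450 induced through the receptor, had 11.42 with FBP1 and 11.18 in the control of MDA-MB231, and 8.44 with FBP1 and 9.23 in the control of Hs578T, a change of −0.79. CYP1A1 stood at 0.48 and 0.21, NQO1 at −0.08 and −0.50 and TIPARP at 0.26 and −0.19. The targets therefore had no common direction.

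A further list held 13 measured genes linked to the regulation of IDO1 or to interferon-gamma. Of these, IL1B, an inflammatory cytokine gene, had 11.26 with FBP1 and 10.66 in the control of MDA-MB231, a change of 0.60. In Hs578T it had 7.77 with FBP1 and a dim 6.41 in the control, a change of 1.36 whose size is uncertain. CXCL10, a chemokine gene induced by interferon, had 8.26 with FBP1 and 7.55 in the control of MDA-MB231, a change of 0.71, and was dim in Hs578T at 4.82 with FBP1 and 4.65 in the control. IRF1 stood at −0.20 and 0.11, IRF8 at 0.46 and 0.18, PTGS2 at −0.01 and −0.40 and TGFB1 at −0.15 and −0.42. IRF8 was dim on all 4 arrays, so the size of its changes is uncertain. Between the lines, 5 of the 13 were called higher in MDA-MB231, where 19.0% of all genes were. Among them were IL1B (3.87 log2), CXCL10 (3.17) and PTGS2 (2.02). Another 5 were called higher in Hs578T, against 16.9% of all genes, such as the kinase gene JAK2 (−2.22) and TGFB1 (−1.34). The counts are descriptions. Of 5 listed cofactor genes, the 3 measured were ALPL (−0.09 and −0.18), RFK (0.09 and −0.04) and FLAD1 (−0.02 and 0.07). IL4I1, AHRR and GBP1 share a probe set with another gene and were left out. They are not the only listed genes without a value, since 8 of 10 were measured in the AHR list.

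Of 8 listed basal or mesenchymal markers, 6 were measured. VIM, CAV1, CD44, EGFR and KRT14 were above the dim level on all 4 arrays and KRT5, a basal keratin, was dim on all. KRT14, another basal keratin, changed by −0.19 log2 with FBP1 in MDA-MB231 and by 0.77 in Hs578T. Of 8 luminal markers, KRT8, KRT18, GATA3, FOXA1 and ERBB2 were above the dim level on all 4 arrays, CDH1 in MDA-MB231 alone, and the receptors ESR1 and PGR were dim on all. The limma fit called KRT8, GATA3 and CDH1 as higher in MDA-MB231, where it called 19.0% of all genes. It called PGR as higher in Hs578T, where it called 16.9%. All 5 fibroblast markers were lower in MDA-MB231 than in Hs578T, with mean differences of −2.20 to −5.41 log2. Their summed log2 values were 33.4 with FBP1 and 34.3 in the control of MDA-MB231, and 51.8 with FBP1 and 53.4 in the control of Hs578T. FAP changed by 0.13 log2 with FBP1 in MDA-MB231 and by −1.34 in Hs578T, and LUM by −1.13 and −0.21. PDGFRB changed by 0.06 and −0.30, DCN by 0.16 and 0.26 and COL1A1 by −0.06 and 0.04. DCN was dim on both MDA-MB231 arrays, LUM on the FBP1 array of MDA-MB231 (6.54) and FAP on every array but the Hs578T control (8.01). The changes and line differences that use these dim values have an uncertain size. The part of these markers in the TDO2 values was not tested. Of 8 leukocyte and macrophage markers, 3 (CD14, CD68 and CSF1R) were above the dim level, PTPRC, the pan-leukocyte gene, was dim at 4.52 to 4.96, and the summed values ran from 54.7 to 55.9. Of the 4 hepatocyte markers, APOA1 was above the dim level on all 4 arrays, at 8.14 to 8.30. ALB, at 5.15 to 5.35, TTR and CYP3A4 were dim on all. The 4 summed to 23.9 with FBP1 and 24.2 in the control of MDA-MB231, and 24.9 with FBP1 and 24.4 in the control of Hs578T. Of 4 endothelial markers, PECAM1 and KDR were above the dim level in MDA-MB231 alone, and CDH5 and VWF were dim on all arrays. In RNA from whole cultures, fewer cells with a transcript and less of it per cell cannot be told apart.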

How the data were processed

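Total RNA of 4 samples was measured on Affymetrix arrays. The deposited table holds log2 expression values of 33297 probe sets, made by the authors with Affymetrix Expression Console 1.1.2800.28061, per the submitters' processing notes. The summarization and normalization are not given in the sources used here, and a log2 scale was inferred from their range (2.40 to 14.81). Line and construct in the labels gave the groups. Through the platform annotation, 19460 probe sets name 1 gene, 1754 several and 12083 none. Single-gene probe sets were used, the one of highest mean per gene, without an intensity filter. Members, lists and tests were chosen with earlier results of these data known. Changes are FBP1 minus control per line, counted at 1.5-fold. The limma package 3.58.1 (R 4.3.3) fitted line and construct terms to all 18417 genes, with an intensity trend (1 residual degree of freedom, prior 5.09). Adjusted p-values are Benjamini-Hochberg. Named genes were the members, FBP1, list genes past 1.5-fold or up to 4 largest per list, the 5 nearest profiles to KYNU and its 3 flanking genes on each side, plus genes described for their level. Alternatives were quantile normalization, median centring, averaging of probe sets, a filter at the 25th percentile, no variance trend, no construct term and 2-fold. The dim level and the TDO2 neighbours were added after the values were seen. The number of arrays limits the precision.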

Additional observations from a re-analysis of the deposited data

Results flagged for a closer look

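CTSO, the gene beside TDO2 on chromosome 4, differed in opposite directions in the lines. Its log2 value was 6.92 with FBP1 and 6.29 in the control of MDA-MB231, both dim, and 7.41 with FBP1 and 8.19 in the control of Hs578T. The changes were 0.63 in MDA-MB231 and −0.78 in Hs578T, 1.41 apart. Both lay within the extremes of the olfactory receptor genes, whose highest change was 0.63 in MDA-MB231 and lowest −0.80 in Hs578T. The 7.41 was close to the dim level of 7.34 on that array. This difference was not tested, as each line and construct has 1 array.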

How the results depend on the processing

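Of 137 recomputed values, 132 moved by less than the SD of all genes' changes, the standard error of a line difference or, for counts, 1.5 times. The other 5 moved by more. No log2 value of at least 0.585 in size changed sign, but smaller ones in MDA-MB231 did. IDO1 went from −0.015 to 0.0045 with quantile normalization, and HAAO from −0.0072 to 0.0038 with median centring. The median of the members went from 0.022 to −0.0072 with the filter at the 25th percentile. Averaging of probe sets is counted in the 137, but it could not move a member's change or line difference, since each of the 10 members had 1 probe set. Over the main values, quantile normalization and median centring, the KYNU change ranged from −0.73 to −0.71 log2 in MDA-MB231 and from −0.89 to −0.87 in Hs578T. That of TDO2 ranged from −0.58 to −0.57 in MDA-MB231 and from −1.55 to −1.53 in Hs578T. At 2-fold, 0 members were lower in MDA-MB231 and 1 in Hs578T (TDO2). Members called higher in MDA-MB231 numbered 2 (AFMID beside KYNU) with genes below the 25th percentile left out, which kept 7 of 10 members, and 2 without the construct term. Members called higher in Hs578T and at least 2-fold numbered 2. The limma count for FBP1 over both lines was 0 under every alternative fit run. No replicate could be left out, since each group has 1 array. The line term pairs the FBP1 and control arrays of a line, and no further pairing was possible.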

Other observations

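TDO2 had nearest profiles of its own among genes abundant in Hs578T, by the measure used for KYNU. The 5 nearest were LY96 (distance 0.606), a co-receptor of TLR4, the vessel growth factor gene ANGPT1 (0.644), CRISPLD1 (0.673), the endogenous retroviral gene ERV3-1 (0.689) and the phospholipase gene PLCB4 (0.758). In Hs578T their changes with FBP1 were −1.11, −0.88, −0.97, −1.27 and −0.80 log2, beside −1.54 for TDO2. In MDA-MB231 they were 0.16, −0.04, −0.04, −0.16 and −0.02, beside −0.58 for TDO2. These genes were picked for likeness, so their agreement with TDO2 is a description over 4 arrays.

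The other measured genes beside TDO2 on chromosome 4 were GUCY1A1, GUCY1B1 and ASIC5 on one side and, past CTSO, PDGFC and GLRB. The guanylate cyclase subunit genes GUCY1A1 and GUCY1B1 stood at −0.29 and −0.29 in Hs578T and at −0.02 and 0.07 in MDA-MB231. For PDGFC the change was −0.05 log2 in MDA-MB231, against 0.06 in Hs578T.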
